A study of Mus musculus with 18 samples.

Results

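The 7 genes described here encode the myosin chains of heart muscle. They are the heavy chains Myh6, Myh7 and Myh7b and the light chains Myl2, Myl3, Myl4 and Myl7, taken by symbol from a table of 25731 genes, and all 7 were among the 15088 genes tested. RNA was sequenced from the hearts of 18 adult male wild-type C57BL/6 mice of about 20 g, 1 library per mouse, all collected 7 days after surgery. The 6 SHAM mice had the sham operation, the 6 IR mice had myocardial ischaemia (a block of blood flow) followed by reperfusion, and the 6 IR+Decursin mice had the same injury and decursin, a coumarin compound from the root of Angelica gigas. Mice were assigned at random, and the stated purpose was to learn how decursin may protect the heart after this injury. The dose and route of decursin, the vehicle given to the other mice and the part of the heart taken were not given in the sources used here. Each group is also 1 labelled batch (batch_A, batch_B and batch_C), so batch and group cannot be told apart.

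Cardiac myosin is a motor protein of the thick filament. It is built from a pair of heavy chains, and each heavy chain carries an essential and a regulatory light chain on its lever arm. Myh6 encodes the fast alpha heavy chain, which predominates in the adult mouse heart, and Myh7 encodes the slower beta heavy chain, which predominates in the mouse ventricle before birth and is known to return in stressed rodent hearts. Myl2 and Myl3 encode the ventricular regulatory and essential light chains, and Myl7 and Myl4 encode their atrial counterparts.

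Each library held from 27.5 to 35.0 M counts. The mouse heart's cardiomyocyte genes were abundant in every library: the mean log2(CPM + 1) of 18 cardiomyocyte markers (CPM, counts scaled to library size) was 11.2 to 11.4 in SHAM libraries, 10.5 to 10.9 in IR libraries and 10.7 to 11.3 in IR+Decursin libraries. Matrix genes such as Col1a1, a chain of type I collagen, separated SHAM (80.3 to 128 CPM) from IR (1964 to 2799 CPM). In the IR+Decursin group, library 6 (118 CPM) lay inside the SHAM range and library 5 (280 CPM) was between the groups, while the other 4 had 1341 to 2769 CPM. Libraries IR 3, IR 4 and IR+Decursin 2 had 14072 to 14232 counts of Xist, the RNA of the inactive X chromosome, against at most 8 in the other 15, although all mice are labelled male. The nuclear RNA Gm26917 took 7.54% of the counts of IR+Decursin 6 and 0.915% of those of IR 1. IR 2 and IR+Decursin 6 had the highest levels of atrial genes, given below beside the atrial light chains. Member results without these libraries are given where they changed.

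Myh6 and Myh7 lie head to tail on the minus strand of mouse chromosome 14. In the GRCm38 build with GENCODE M21, Myh6 spans chr14:54941921-54966927 and Myh7 spans chr14:54970684-54994626, with 3756 bases between them. The files' build is GRCm39, so the GRCm38 positions here serve only to place the genes. The 2 stretches below are shown because the neighbouring genes changed in opposite directions. They are the RefSeq sequences upstream of the RefSeq starts of Myh6 at 54966607 (chr14:54966642-54966857, GRCm38.p6, minus strand, 216 bases) and of Myh7 at 54994626 (chr14:54994627-54994876, GRCm38.p6, minus strand, 250 bases). The Myh6 stretch lies within the GENCODE span above, in an intron of a shorter transcript that starts farther upstream. Capitals mark the reverse complement of CATTCC, the MCAT element bound by TEAD factors.
Myh6 upstream: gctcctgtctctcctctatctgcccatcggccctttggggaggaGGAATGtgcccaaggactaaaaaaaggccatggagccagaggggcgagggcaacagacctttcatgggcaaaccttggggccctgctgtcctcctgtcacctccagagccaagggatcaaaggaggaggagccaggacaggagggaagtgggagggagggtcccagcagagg
Myh7 upstream: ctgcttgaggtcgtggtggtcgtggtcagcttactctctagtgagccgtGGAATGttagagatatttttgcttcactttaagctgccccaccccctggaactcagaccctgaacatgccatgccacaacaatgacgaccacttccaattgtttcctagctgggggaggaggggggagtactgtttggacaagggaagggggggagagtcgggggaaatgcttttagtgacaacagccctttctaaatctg
The element stands at a similar distance from these RefSeq starts. A second RefSeq start of Myh7 had no such match in its window. CATTCC on either strand was found in the 250 upstream bases of 12.6% of 32851 RefSeq windows, so a match is common and is only a description. AGGTCA, a thyroid hormone receptor half-site searched on both strands as an exact match, occurred in 14.0% of windows and in neither of these. Variant half-sites were not searched, and binding of the receptor to these stretches was not tested.

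All 3 heavy chain genes carry a microRNA in an intron. Their mature RefSeq sequences are shown because they tie the 3 hosts together. Capitals mark the seed, bases 2 to 8.
mmu-miR-208a-3p (in Myh6): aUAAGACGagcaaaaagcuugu
mmu-miR-208b-3p (in Myh7): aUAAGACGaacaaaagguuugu
mmu-miR-499-5p (in Myh7b): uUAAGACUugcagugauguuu
The Myh6 and Myh7 microRNAs share the seed UAAGACG, and that of Myh7b has UAAGACU. The count table holds 0 rows for these 3 microRNAs, so the values below are those of the host genes only.

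Myh6 and Myh7 are near-identical copies, which bears on how reads are assigned. Their coding sequences of 5817 and 5808 bases were 91.4% identical over 5820 aligned columns. The longest identical run, 245 bases, is printed from Myh7 with 15 flanking bases on each side in lower case. Capitals mark the bases found unchanged in Myh6.
Myh7 coding bases 4240 to 4484: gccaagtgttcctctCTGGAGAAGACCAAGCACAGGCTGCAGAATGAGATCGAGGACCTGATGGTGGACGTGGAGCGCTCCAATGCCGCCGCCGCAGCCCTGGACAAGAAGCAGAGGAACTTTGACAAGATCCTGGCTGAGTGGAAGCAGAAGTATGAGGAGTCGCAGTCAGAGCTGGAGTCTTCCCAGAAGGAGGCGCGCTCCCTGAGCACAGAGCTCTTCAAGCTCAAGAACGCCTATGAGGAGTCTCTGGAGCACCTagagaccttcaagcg
Of all stretches of 50 bases in the Myh7 transcript, 22.6% also occurred in that of Myh6, and of stretches of 150 bases 5.51% did. How the counting treated reads that fit both genes is not given in the sources used here. Low Myh7 values beside abundant Myh6 are therefore uncertain.

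Per kilobase of transcript in SHAM hearts, Myl2 was the most abundant member at 10390 ± 1335 CPM per kb (SD, n = 6). It was followed by Myl3 at 4636 ± 481 and Myh6 at 2931 ± 307 CPM per kb. These 3 were separated by more than their spread, and all others were far lower. Myl7 (57.8 ± 28.1), Myl4 (46.9 ± 20.7), Myh7 (19.0 ± 4.64) and Myh7b (8.45 ± 0.573 CPM per kb) followed, and Myl7 and Myl4 did not differ beyond their spread. In IR hearts Myh7 reached 249 ± 191 CPM per kb, the next after those 3. It was 58.5 ± 41.8 CPM per kb in IR+Decursin hearts, within the spread of the atrial light chains. The 7 genes together took 2.65% to 2.99% of all counts in SHAM, 1.54% to 2.73% in IR and 1.89% to 3.33% in IR+Decursin.

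The first comparison, IR against SHAM, asks how the injured heart differs at 7 days. Myh7 rose, and Myh6, Myh7b, Myl2 and Myl3 fell, while the atrial light chains did not pass the test. These are 5 of 7 members called at an adjusted p under 0.05 (edgeR quasi-likelihood test, Benjamini-Hochberg over all tested genes), against 46.9% of all tested genes. The 1 that rose stands beside 25.2% of tested genes called higher, and the 4 that fell beside 21.7% called lower. The 5 called members were also those whose IR and SHAM ranges did not overlap, against 26.9% of all tested genes (15.4% higher and 11.6% lower). The members' median log2 difference was -0.65, against -0.00187 over all tested genes. In bulk tissue, fewer cells of a type and less RNA per cell cannot be told apart.

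Myh7 had the largest change of the members. Its lowest, median and highest levels were 83.5, 110 and 162 CPM in SHAM, 309, 1207 and 3573 CPM in IR, and 152, 288 and 840 CPM in IR+Decursin. Every IR library was above every SHAM library, and 5 of 6 IR+Decursin libraries were above the SHAM range too. The IR libraries were themselves far apart, with IR 3 lowest and IR 5 highest. Myh7 rose by 3.71 ± 0.56 (log2, SE) in IR against SHAM, with an adjusted p of 6.44e-05 in edgeR. Without the 3 libraries with high Xist, which include IR 3, the difference was 4.03 with an adjusted p of 0.000156.

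Myh6 had a smaller, opposite change. It had 15474, 17641 and 21203 CPM (lowest, median, highest) in SHAM, 8543, 11108 and 14041 CPM in IR and 10749, 14577 and 19663 CPM in IR+Decursin. The IR libraries were all lower than the SHAM libraries, and the IR+Decursin libraries spread over both ranges. Myh6 fell by 0.65 on the log2 scale (SE 0.15) in IR against SHAM, with an adjusted p of 0.00162. On the authors' FPKM values the fall was 0.36 and no longer passed (adjusted p 0.0515, limma on log2(FPKM + 1)).

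Myh7b encodes a slow-type heavy chain expressed at low level in heart. It had 46.5, 52.4 and 57.2 CPM in SHAM, 25.3, 27.7 and 44.0 CPM in IR and 21.0, 34.8 and 39.8 CPM in IR+Decursin. Both injured groups lay entirely under the SHAM range. IR 5, the library with the most Myh7, also had the highest Myh7b of its group. Myh7b fell by 0.77 (log2, SE 0.14) in IR against SHAM, with an adjusted p of 0.000240 in edgeR.

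**Figure D1:**
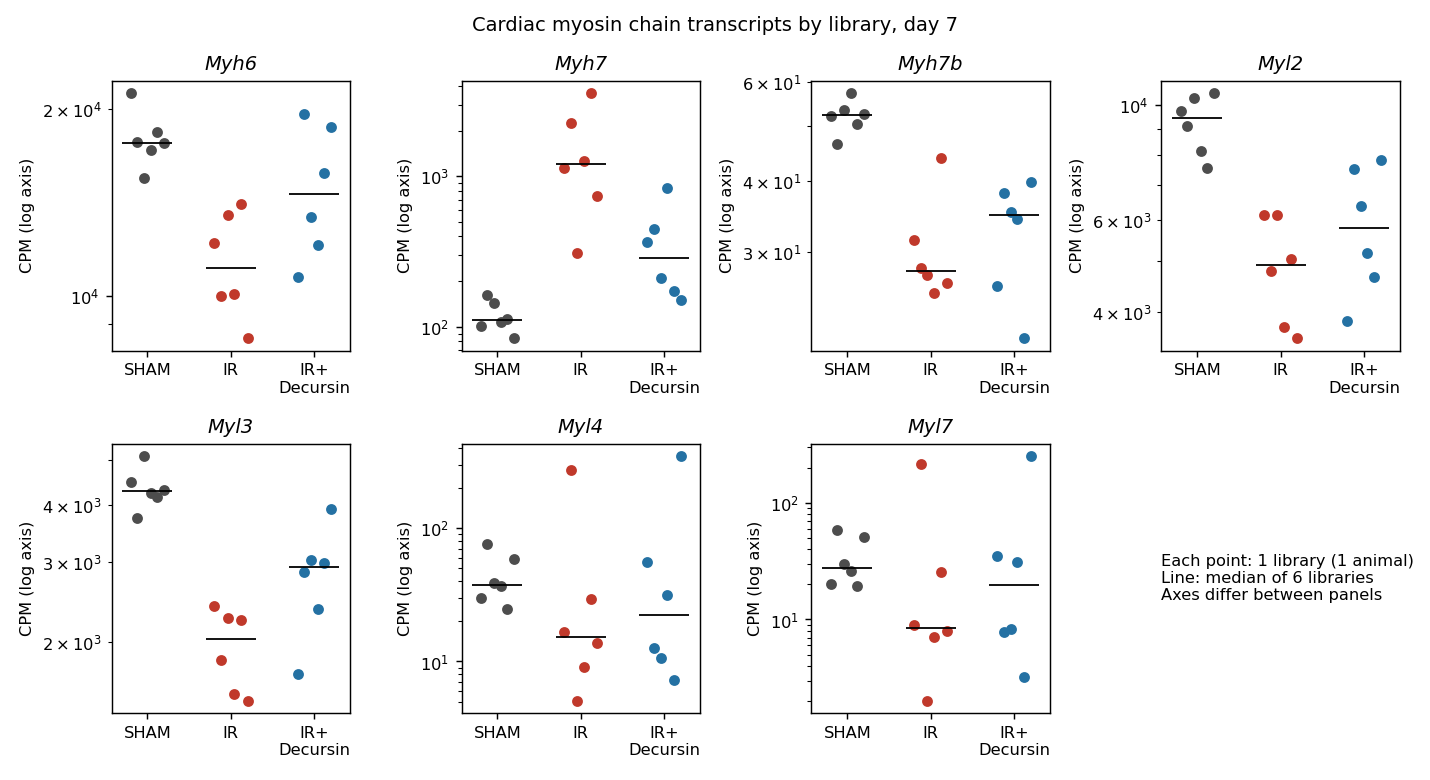
CPM of each of the 7 myosin genes (vertical log axis) in the 6 SHAM, 6 IR and 6 IR+Decursin libraries; each point is 1 library and each line a group's median. Myh7 is higher in all 6 IR libraries than in any SHAM library, Myh6, Myh7b, Myl2 and Myl3 are lower in all 6, and Myl4 and Myl7 have 1 far higher library in IR and 1 in IR+Decursin.

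The ventricular light chains fell with Myh6. Myl2, the regulatory chain whose phosphorylation tunes contraction, had 7556, 9434 and 10531 CPM in SHAM, 3550, 4918 and 6150 CPM in IR and 3844, 5793 and 7850 CPM in IR+Decursin. No IR library reached the SHAM range, and 1 IR+Decursin library, number 6, entered it. Its fall in IR was 0.91 on the log2 scale (SE 0.18), with an adjusted p of 0.000284 in edgeR. Myl3, the essential chain, had 3748, 4280 and 5113 CPM in SHAM, 1484, 2030 and 2402 CPM in IR and 1703, 2919 and 3918 CPM in IR+Decursin. The IR libraries were again all lower, and IR+Decursin 6 alone of its group lay in the SHAM range. Myl3 fell by 1.15 on the log2 scale (SE 0.16) in IR, with an adjusted p of 1.90e-05, the smallest of the 7 members.

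The falls were set beside those of other heart muscle genes. Of the 18 cardiomyocyte markers, 17 fell and 0 rose in IR against SHAM, with a median of -0.60 (log2; with total counts alone 10 fell and 1 rose), and the share of counts from mitochondrial genes was 28.4% to 32.8% in SHAM and 20.1% to 28.3% in IR. Each member's log2(CPM + 1) was therefore also taken relative to the mean of those markers in the same library. On that scale Myh6 differed by -0.053 ± 0.078 between IR and SHAM (exact permutation test over libraries, two-sided, adjusted p 0.760 over the family of 21 tests). Myl3 was still lower by -0.55 ± 0.10 and Myh7 still higher by 3.96 ± 0.52, each with groups that did not overlap (exact permutation, adjusted p 0.0227 each). Myl2 was lower by -0.32 ± 0.12 (exact permutation, adjusted p 0.0974) and Myh7b by -0.16 ± 0.10 (exact permutation, adjusted p 0.314), which did not pass.

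The balance of the heavy chains was read in each library as the ratio of Myh7 to Myh6, from the authors' FPKM (counts scaled by gene length and library total), which does not depend on scaling between libraries. Myh7 made up 0.452% to 0.876% of the pair in SHAM (mean 0.639% ± 0.192, SD, n = 6). In IR libraries 1 to 6 it made up 8.24%, 17.9%, 2.15%, 10.8%, 19.6% and 7.68%. In IR+Decursin libraries 1 to 6 it made up 3.16%, 2.13%, 1.48%, 6.24%, 1.04% and 0.770%. Even at the highest share, Myh6 RNA was the more abundant. Every IR library was above the SHAM range, and IR+Decursin 6 was the only library of its group inside it. IR 3 had a lower share than 2 of the IR+Decursin libraries, 1 and 4.

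On the log2 scale the mean ratio was -7.33 ± 0.43 for SHAM, -3.31 ± 1.26 for IR and -5.67 ± 1.13 for IR+Decursin (SD, n = 6 each). The ratio was 16.3-fold higher in IR than in SHAM, a log2 difference of 4.02 ± 0.54 (SE). The exact two-sided permutation p was 0.00216, the smallest that 6 against 6 libraries can give, and 0.0390 after adjustment over 18 ratio tests. IR+Decursin was lower than IR by -2.36 ± 0.69, with an exact permutation p of 0.0108 that became 0.0649 after adjustment. IR+Decursin was higher than SHAM by 1.67 ± 0.49, with an exact permutation p of 0.00649 and an adjusted value of 0.0584. The last 2 differences therefore missed the threshold after adjustment. They passed without IR 3 and without IR+Decursin 4, and the second also without IR+Decursin 2 or 6. IR 3 is not among the libraries of the second, which passed there only through the adjustment over the 18 tests. Without any 1 SHAM library the IR difference kept its size but not its call (adjusted p up to 0.0779). The same held without the 3 libraries with high Xist (4.51, adjusted p 0.0584). In these cases the IR and SHAM ratios still did not overlap, and fewer libraries left fewer possible splits for the permutation test.

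**Figure D2:**
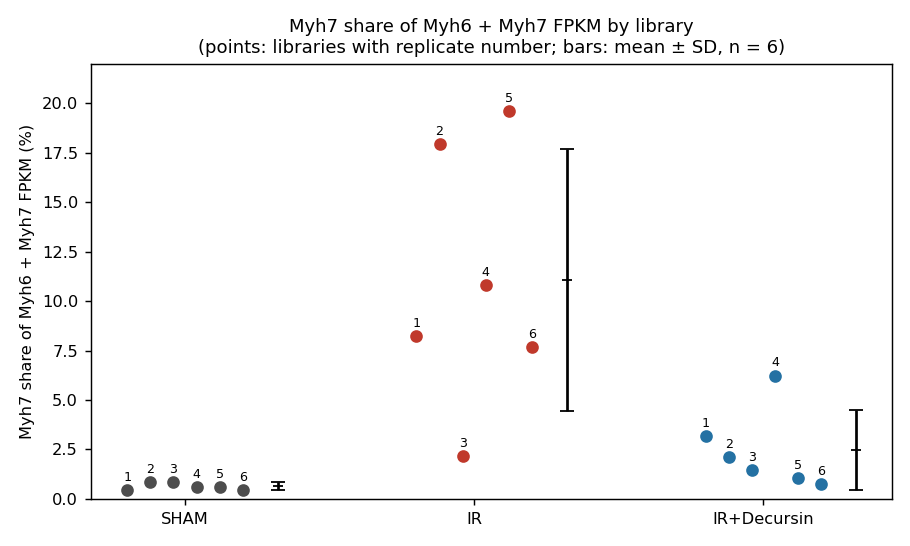
Myh7 as a percentage of Myh6 plus Myh7 FPKM (vertical axis) per library, with the mean and SD of each group. SHAM libraries lie at 0.452% to 0.876%, IR libraries at 2.15% to 19.6% and IR+Decursin libraries at 0.770% to 6.24%.

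The ratio varied within the injured groups, and its relation to the mean level of 8 matrix genes was examined in each group of 6 libraries. In IR, the libraries with more matrix RNA had the lower Myh7 to Myh6 ratio (Pearson r -0.84, exact permutation p 0.0222; Spearman rho -0.89, exact permutation p 0.0333). With IR 3 and IR 6 left out, r was -0.68. In IR+Decursin r had the other sign, 0.76 (exact permutation p 0.0861; rho 0.71, exact permutation p 0.136), and was 0.07 without libraries 5 and 6, on which it rested. Macrophage, cardiomyocyte and atrial marker levels and the Myl7 to Myl2 ratio were examined likewise. With cardiomyocyte markers, r of Myh7 to Myh6 was -0.85 in IR+Decursin (exact permutation p 0.0333), -0.05 in IR and -0.16 in SHAM. None of 24 such relations passed after adjustment over all of them (for the 2 with matrix genes, adjusted p 0.150 and 0.295). The smallest adjusted p was 0.0667, for Myl7 to Myl2 with atrial markers in IR and in IR+Decursin. The difference between the groups was not tested.

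**Figure D3:**
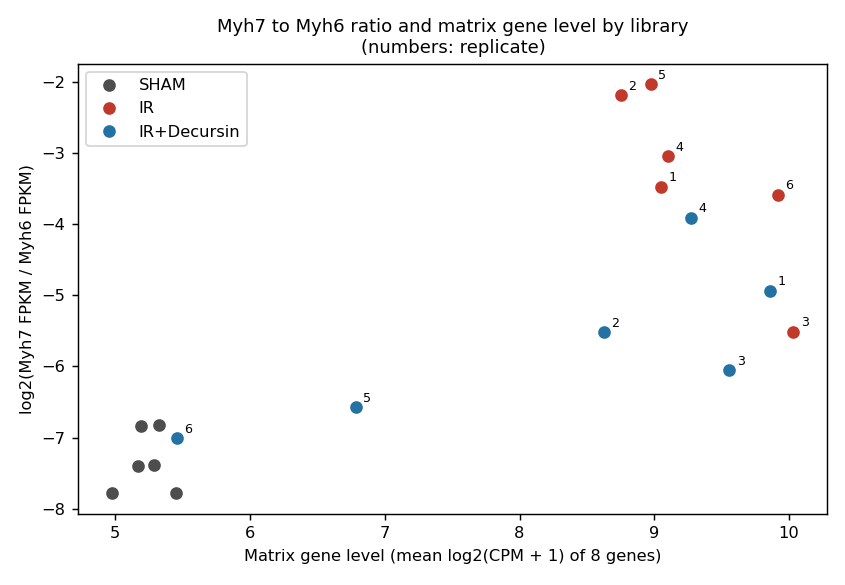
The log2 ratio of Myh7 to Myh6 FPKM (vertical axis) against the mean log2(CPM + 1) of 8 matrix genes (horizontal axis), 1 point per library. Within IR the ratio is lower where the matrix level is higher, and IR+Decursin 5 and 6 lie at 6.79 and 5.46 on the horizontal axis, away from the other 4 libraries of their group.

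The atrial light chains behaved differently from the ventricular ones. Myl7 had 19.4, 27.9 and 58.9 CPM in SHAM, 2.00, 8.47 and 215 CPM in IR and 3.24, 19.8 and 251 CPM in IR+Decursin. Myl4 had 24.9, 37.7 and 76.1 CPM in SHAM, 5.04, 15.2 and 273 CPM in IR and 7.25, 22.2 and 348 CPM in IR+Decursin. In both genes the highest values were IR 2 and IR+Decursin 6, and most other injured libraries lay under the SHAM median. Neither gene was called in any comparison by edgeR: in IR against SHAM both had a log2 difference of 0.38, with SE 1.06 for Myl4 and 1.12 for Myl7 (adjusted p 0.792 and 0.805).

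The same 2 libraries had the highest mean level of other atrial genes. The mean of 13 atrial markers without Nppa was 4.95 in IR 2 and 5.03 in IR+Decursin 6, against 3.50 to 4.29 elsewhere. Sln, the atrial calcium pump inhibitor sarcolipin, had 93.9 and 84.9 CPM there and 0.174 to 13.7 CPM elsewhere. Mybphl, an atrial myosin binding protein gene, had 35.9 and 40.3 CPM there, and at most 7.88 CPM elsewhere. Bmp10, another of these markers, was at 0 in all SHAM libraries and near the floor in the injured ones. It did not follow this pattern: its highest value was 0.239 CPM (9 counts) in IR 5, with 1 count in IR 2 and 0 in IR+Decursin 6. The part of atrial tissue in these values was not tested. Without IR 2, Myl4 differed between IR and SHAM by -1.58 and Myl7 by -1.72, and neither passed in edgeR (adjusted p 0.175 and 0.168). With IR+Decursin 6 also left out, an alternative chosen after seeing the data, these differences were the same. Their adjusted p was then 0.0371 and 0.0521, although that library enters the comparison only through the shared estimate of spread, scaling and filter.

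Myl4 and Myl7 varied together from library to library. The gene whose deviations from the group means were most like those of Myl7 over 18 libraries was Myl4, among 11628 genes with at least 2 CPM (r 0.99). Sln (0.98), Mybphl (0.98), Pam (0.86) and Dkk3 (0.86) followed. These points share libraries and depth, and the values are a description. The log2 ratio of Myl7 to Myl4 in FPKM was 4.39 ± 0.12 for SHAM, 4.14 ± 0.43 for IR and 4.22 ± 0.38 in IR+Decursin, a level raised by the gene length behind the Myl4 FPKM but comparable between groups. The sequence upstream of Myl7 is shown because its chain marks the atrial pattern (chr11:5898783-5899032, GRCm38.p6, minus strand, RefSeq). Capitals mark CATTCC, a CArG box, the element of serum response factor, and GATAA.
Myl7 upstream: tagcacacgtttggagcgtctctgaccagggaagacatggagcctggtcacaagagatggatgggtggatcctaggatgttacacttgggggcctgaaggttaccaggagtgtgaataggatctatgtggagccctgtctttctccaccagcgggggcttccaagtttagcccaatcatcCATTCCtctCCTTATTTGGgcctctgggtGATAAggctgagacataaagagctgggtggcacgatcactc
GATAA on either strand was found in 22.6% of the 32851 windows of 250 bases and a CArG box in 1.47%. Among the members' windows, those of Myl3 and Myl7 held a CArG box, both with MCAT and GATAA matches as well, and that of Myl4 held no match to the motifs searched.

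**Figure D4:**
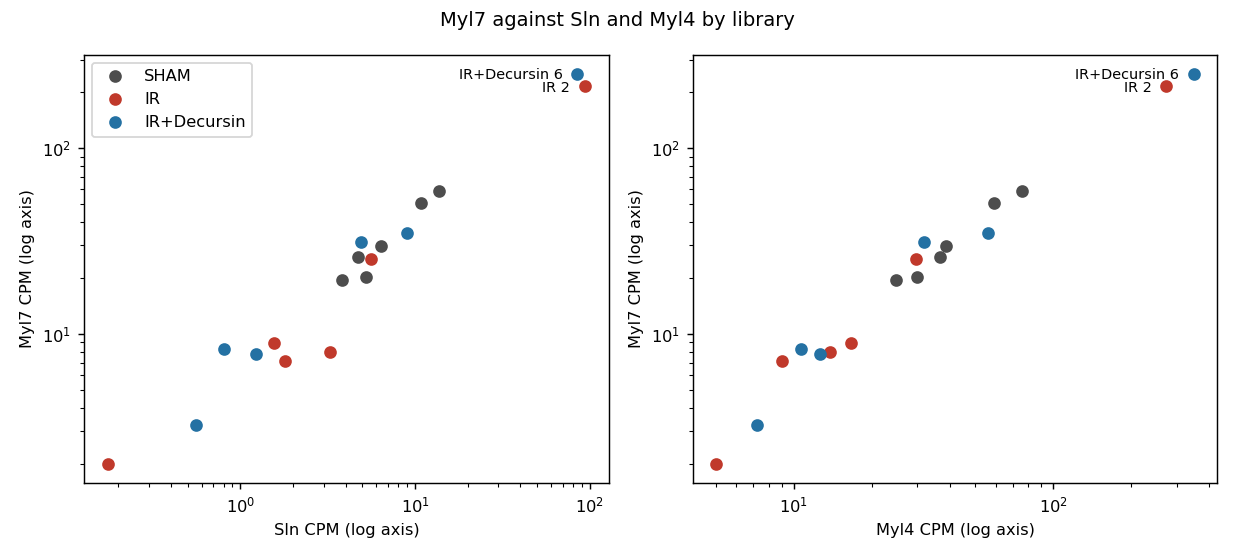
Myl7 CPM (vertical log axis) against Sln CPM and against Myl4 CPM (horizontal log axes), 1 point per library. IR 2 and IR+Decursin 6 lie apart at the upper right, at 93.9 and 84.9 CPM of Sln and at 273 and 348 CPM of Myl4.

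Deviations of the other members were shared with different genes. The 5 genes most like Myh6 were Pitpnm2 (r 0.93), Oxa1l, Atp5a1 and Dele1 (0.90 each), and Mybpc3 (0.89), the cardiac myosin binding protein. Those most like Myl2 were Doc2g (0.93), the troponin genes Tnni3 and Tnnc1 (0.89 each), Smim20 and Prdx2 (0.88 each), and Myl3 ranked 28 at 0.83. Myh7 was most like Mmp9 and Chl1 (0.83 each), Fam199x (0.79), C1s1 (0.77) and Slit3 (0.76). Mmp9 encodes a matrix metalloproteinase. All these values are over the 18 libraries and describe them only.

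Mhrt is transcribed on the opposite strand and overlaps Myh7 by 3666 bases. It had 78.2 ± 22.7 CPM in SHAM, 72.2 ± 41.1 CPM in IR and 62.3 ± 18.8 CPM in IR+Decursin (SD, n = 6). It was not called in any comparison by edgeR (adjusted p 0.810, 0.776 and 0.513 for IR against SHAM, IR+Decursin against IR and IR+Decursin against SHAM). Whether counting used strand is not given in the sources used here, but without it reads of Mhrt and Myh7 cannot be told apart where they overlap.

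The second comparison, IR+Decursin against IR, asks what decursin adds in the injured heart. None of the 7 members was called, nor was any of the tested genes (0% called, 2711 at an unadjusted p under 0.05, edgeR). No member had groups that did not overlap, against 0.517% of tested genes. Myh7 was lower by -2.09 ± 0.52 (log2, SE; adjusted p 0.0981), Myl3 higher by 0.52 ± 0.16 (adjusted p 0.136), Myh6 by 0.40 ± 0.15 (adjusted p 0.191), Myl2 by 0.27 ± 0.17 (adjusted p 0.418) and Myh7b by 0.09 ± 0.14 (adjusted p 0.768). Myl4 and Myl7 differed by 0.42 ± 1.05 and 0.33 ± 1.11. DESeq2 called 394 genes, among them Myh7 (-2.08, adjusted p 0.0109) and Myl3 (0.52, adjusted p 0.0441). Without IR+Decursin 1, edgeR called 976 genes, with Myh7 at -2.09 (adjusted p 0.0471) and Myl3 at 0.63 (adjusted p 0.0204).

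Relative to the cardiomyocyte markers, Myh7 was lower in IR+Decursin than in IR by -2.23 ± 0.67 (exact permutation p 0.0152, adjusted p 0.0795) and Myl3 higher by 0.24 ± 0.11 (exact permutation p 0.0563, adjusted p 0.131). Neither passed after adjustment. The other ratio of ventricular chains, Myl2 to Myl3, was -0.42 ± 0.18 for SHAM, -0.19 ± 0.10 for IR and -0.43 ± 0.25 in IR+Decursin (log2 of FPKM, SD). The gene length behind the Myl2 FPKM lowers this level alike in all groups. Its difference of -0.25 between IR+Decursin and IR had an exact permutation p of 0.0346 and an adjusted p of 0.104. Its difference of 0.23 between IR and SHAM had an exact permutation p of 0.0260 and an adjusted p of 0.101. The 5 ratios other than Myh7 to Myh6 passed in none of the 3 comparisons.

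The third comparison sets IR+Decursin against SHAM, and it shares libraries with both others. Myh7 was higher, and Myl2, Myl3 and Myh7b were lower, which makes 4 of 7 members called, against 29.3% of tested genes (17.5% higher and 11.8% lower). The groups did not overlap for 1 member, Myh7b, against 7.34% of tested genes (4.44% higher and 2.9% lower). Myh7 rose by 1.62 ± 0.51 (adjusted p 0.0263), Myl2 fell by 0.64 (SE 0.18, adjusted p 0.00968), Myl3 fell by 0.63 (SE 0.16, adjusted p 0.00727) and Myh7b fell by 0.68 (SE 0.14, adjusted p 0.00211). Myh6 differed by -0.25 ± 0.15, which did not pass (adjusted p 0.233), and neither did Myl4 (0.81 ± 1.06, adjusted p 0.609) or Myl7 (0.71 ± 1.12, adjusted p 0.675). The Myh7 call was lost without SHAM 1, SHAM 6 or IR+Decursin 4 (adjusted p 0.0529, 0.0526 and 0.0824), and without IR+Decursin 4 the difference was 1.19. Relative to the cardiomyocyte markers, of which 10 fell and 0 rose in this comparison, Myh7 was higher by 1.73 ± 0.48 (exact permutation, adjusted p 0.0303). Leaving out any 1 SHAM library ended that call (adjusted p up to 0.0795).

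**Figure D5:**
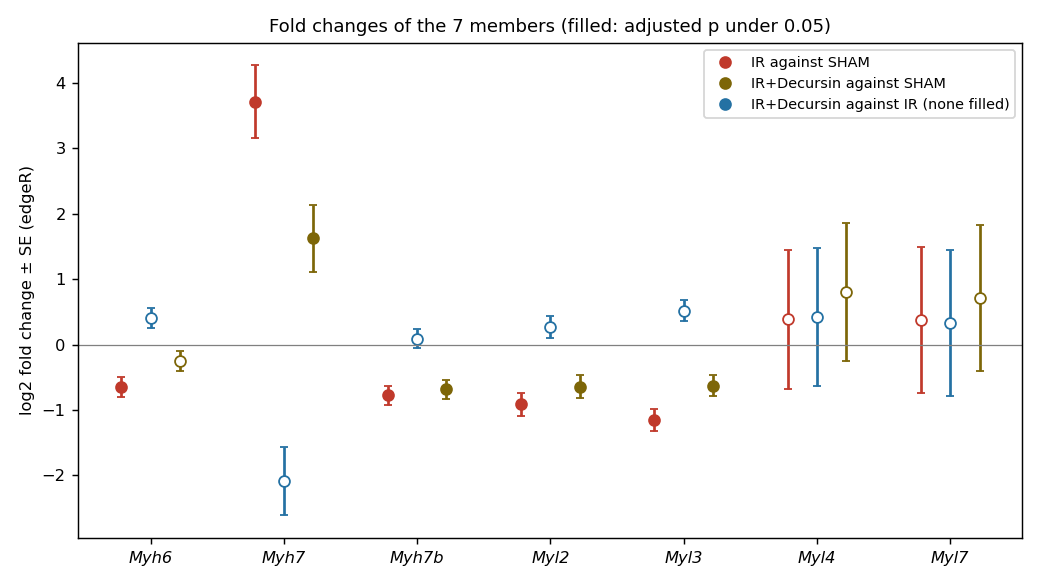
Log2 differences with SE of the 7 members in the 3 comparisons (edgeR). Myh7 has the values 3.71, -2.09 and 1.62 and the other ventricular members the opposite signs, with far wider errors for Myl4 and Myl7.

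The choice of scaling matters for the smaller changes. With total counts alone, the median of all tested genes was 0.31 in IR against SHAM and 0.22 in IR+Decursin against SHAM, and 86.9% of the called genes in IR against SHAM were higher, against 53.8% with TMM scaling (a trimmed mean of log ratios). These shares were 92.7% and 59.9% in IR+Decursin against SHAM. The 5 called members kept their direction and call there: Myh7 was 4.03, Myh6 -0.35, Myh7b -0.47, Myl2 -0.61 and Myl3 -0.85 in IR against SHAM, all of them to be read against that shift.

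Other genes of the myosin system were counted by list. Over all tested genes, 25.2% were called higher and 21.7% lower in IR against SHAM. In IR+Decursin against SHAM these shares were 17.5% and 11.8%. Of 14 tested thick filament partners, chaperones and turnover genes, 10 fell and 0 rose in IR against SHAM, with a median of -0.47 (log2). They included Smyd1, a methyltransferase needed to assemble sarcomeres (-0.70, adjusted p 2.52e-05), Unc45b, the myosin chaperone (-0.74, adjusted p 0.000262), and Myom1, which links filaments at the M-band (-0.54, adjusted p 0.000386). Between IR+Decursin and SHAM 5 of 14 fell. With total counts alone, 4 fell and 1 rose in IR against SHAM.

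Of 7 light chain kinase and phosphatase genes tested, 4 fell and 0 rose in IR against SHAM. This stands beside 46.9% of all tested genes called either way and 21.7% called lower. Mylk4, a kinase of this family, was lower by -1.06 (adjusted p 0.000137), Ppp1cb, the catalytic subunit of myosin phosphatase, by -0.39 (adjusted p 0.000848), and its targeting subunit Ppp1r12b by -0.42 (adjusted p 0.00482). Between IR+Decursin and SHAM 2 of 7 fell, against 29.3% of all tested genes called either way and 11.8% called lower. This direction depended on scaling, since with total counts alone 3 rose and 1 fell in IR against SHAM, Mylk4 being negative under each scaling.

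Myosin genes outside the cardiac set moved both ways, as did all tested genes, of which 25.2% were called higher and 21.7% lower in IR against SHAM. Of 4 other heavy chains tested, 2 rose and 1 fell in IR against SHAM: Myh9 and Myh10, non-muscle heavy chains, by 1.05 (adjusted p 1.15e-05) and 0.48 (adjusted p 0.0100), and Myh11, of smooth muscle, by -0.49 (adjusted p 0.00603). Of 7 other light chains tested, 2 rose and 2 fell, Myl12b by 0.37 (adjusted p 0.000374), Myl6 by 0.45 (adjusted p 0.00244) and Myl12a by -0.54 (adjusted p 0.00133) being those with the smallest adjusted p. Myh9 was the only one of the 4 heavy chains called in IR+Decursin against SHAM (0.77, adjusted p 0.000747), where 29.3% of all tested genes were called. With total counts alone no gene of either list fell in IR against SHAM.

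Thyroid hormone signalling genes and myosin gene transcription factors were counted in the same way. Of all tested genes, 46.9% were called in IR against SHAM and 29.3% in IR+Decursin against SHAM. Of 14 tested thyroid hormone signalling genes, 2 rose and 3 fell in IR against SHAM, and again in IR+Decursin against SHAM. The retinoid receptor gene Rxrg and the hormone-responsive gene Thrsp fell by 0.73 (adjusted p 2.18e-05) and by 1.38 (adjusted p 0.000142). With total counts alone 4 rose and 2 fell. Of 21 myosin transcription factors, 1 rose and 4 fell in IR against SHAM, and 0 were called in IR+Decursin against SHAM. Tead1, a factor of the MCAT element shown above, fell by 0.57 (adjusted p 0.000837), Mef2c by 0.34 (adjusted p 0.00631) and Myocd by 0.40 (adjusted p 0.0134). The other listed TEAD factors did not share the fall of Tead1: over the scalings, Tead3 was 0.18 to 0.51 and Tead4 was -0.12 to 0.22 in IR against SHAM. The count of the 21 factors depended on scaling, since with total counts alone 5 rose and 0 fell. In IR+Decursin against IR edgeR called 0 of all tested genes, so none of these 6 lists could hold a call there.

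Markers of other tissues were counted as a check on the heart samples. Over all tested genes, 25.2% were called higher and 21.7% lower in IR against SHAM. In IR+Decursin against SHAM these shares were 17.5% and 11.8%. All 8 matrix genes and all 10 macrophage markers rose in both injured groups against SHAM, with medians of 3.93 and 2.38 in the former (log2). Of 7 ventricular markers 3 fell in IR and 1 in IR+Decursin against SHAM, among them Kcnd2 by 0.90 (adjusted p 2.42e-05) and Pln, the inhibitor of the calcium pump, by 0.50 (adjusted p 0.000206) in IR. Of 16 stress and fetal heart genes, 4 rose and 3 fell in IR against SHAM, near the shares over all tested genes. Of 7 fast skeletal muscle markers tested 1 rose and 1 fell, and of 2 slow ones 1 fell, in IR against SHAM. Of 6 conduction markers 1 rose and 2 fell, of 8 fibroblast markers 6 rose and 1 fell, of 7 smooth muscle markers 2 fell and of 7 endothelial markers 1 rose and 2 fell. The 13 atrial markers tested went both ways in IR against SHAM, where 2 rose, 1 fell and 10 were not called by edgeR. Nppa was 1.38 (adjusted p 0.0365), Gja5 0.44 (adjusted p 0.0381) and Kcna5 -0.80 (adjusted p 0.00464). The part of these cell types in the members' changes was not tested.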

How the data were processed

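The authors deposited raw counts and FPKM per gene for 18 libraries, 1 from each of 18 mouse hearts. Per the submitters' processing notes, reads were handled with fastp, HISAT2, HTSeq and GRCm39; their versions, the annotation and the strand setting were not given in the sources used here. FPKM as deposited by the authors scale each count by gene length and library total, so for Myl4 (16315 bases), Myl2 and Myh7b, whose lengths there exceed their transcripts, FPKM understates the level against other genes. Levels between genes are therefore CPM per kb of the longest coding transcript in GENCODE M21.

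Counts were filtered by expression, scaled by TMM and tested with edgeR 4.0.16 (quasi-likelihood, 3 groups in 1 fit, R 4.3.3), with Benjamini-Hochberg adjustment over 15088 genes and a threshold of 0.05. Ratios and values relative to cardiomyocyte markers were tested with exact two-sided permutation tests over libraries (scipy 1.17.1). Alternatives used DESeq2 1.42.0, limma 3.58.1, other scalings and filters, and left-out libraries. Scripts were tested on simulated data. Labels give each library as a separate mouse.

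Named were all 7 members, Mhrt and the microRNAs, up to 3 genes per list with the smallest adjusted p in IR against SHAM (1 gene is not reported here), and the 5 genes most like each of Myh7, Myh6, Myl2 and Myl7. The members and lists were chosen with earlier results of these data known. Sequences are from RefSeq (GRCm38.p6) and GENCODE M21 transcripts, matched by symbol.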

Additional observations from a re-analysis of the deposited data

Results flagged for a closer look

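Of 60 groups of 6 values examined, 6 had 1 library far from the other 5. A chance rate is not given, since the groups reuse the same genes and libraries and CPM were taken without logs. No log2 value of Myl4 or Myl7 was flagged. Myl4 was 273 CPM in IR 2 (next 29.7) and 348 CPM in IR+Decursin 6 (next 55.9). Myl7 was 215 CPM in IR 2 (next 25.4) and 251 CPM in IR+Decursin 6 (next 34.9). These 4 values are the 2 libraries with the highest level of the other atrial markers. Myh7b was 44.0 CPM in IR 5, against 31.5 in the next IR library. Myl3 relative to the cardiomyocyte markers was 0.0470 (log2) in IR+Decursin 1, against 0.462 in the next library of that group.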

How the results depend on the processing

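Depth of 27.5 to 35.0 M counts was ample for the abundant members. The limits were the spread among injured hearts, batches that each hold 1 group, reads shared by Myh6 and Myh7, and 2 libraries rich in atrial genes. Myh7, Myh7b, Myl2 and Myl3 kept their direction and call in IR against SHAM in all 33 alternatives, and Myh6 lost its call with FPKM + 1 only. The Myh7 call in IR+Decursin against SHAM was also lost with no low-count filter (1.63, adjusted p 0.0514) and with FPKM + 1 (1.55, 0.0568).

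Between IR+Decursin and IR, DESeq2 called 2 members and 394 genes, and leaving out 1 library gave 0 to 2 members and 0 to 976 genes. FPKM + 1 called 2 members in IR+Decursin against SHAM. Myh7b in IR+Decursin against IR was near 0: -0.000298 with total counts, -0.00283 with FPKM + 1, -0.00591 with FPKM + 0.1 and -0.0558 without the libraries with high Xist. Signs of Myl4 and Myl7 were unstable. In IR against SHAM, Myl4 was -0.22 (FPKM + 1), -0.57 (FPKM + 0.1), -0.59 (replicate block), and, in alternatives chosen after seeing the data, -1.58 without the atrial-rich libraries and -0.46 with the atrial level as a covariate. Myl7 was -0.84, -0.91, -0.65, -1.72 and -0.62 in the same order. Myl7 between IR+Decursin and SHAM was -0.40 with FPKM + 1, -0.44 with FPKM + 0.1, -1.02 without the libraries highest in Gm26917, -0.99 without the atrial-rich ones and -0.50 with the covariate. Myl4 was -0.22 with FPKM + 0.1, then -0.93, -0.90 and -0.40. Without the libraries highest in Gm26917, IR+Decursin against IR gave -1.47 for Myl4 and -1.58 for Myl7. The cause was not tested.

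The Myh7 to Myh6 difference between IR and SHAM was 4.13 from medians (adjusted p 0.0779), 4.51 without the libraries with high Xist (0.0584) and 4.02 with the replicate block (0.141, where the smallest p is 0.03125). As a percentage of the pair, IR+Decursin differed from IR by -8.59 and from SHAM by 1.83 points (adjusted p 0.0390 each). Without the libraries highest in Gm26917, or the atrial-rich ones, the log2 ratio in IR+Decursin differed from that in SHAM by 1.93 (adjusted p 0.0195). Both pairs take only IR+Decursin 6 out of the comparison with SHAM, so they are the same alternative there as leaving out that library alone. Medians gave -0.016 for Myl7 to Myl4 in IR+Decursin against IR and 0.042 for Myl2 to Myl3 in IR+Decursin against SHAM, which was 0.00129 without either pair of libraries. Myl2 relative to markers without sarcomere genes was 0.00131 in IR+Decursin against IR. With the replicate block, 0 members passed relative to the markers in IR against SHAM (2 in the analysis reported) and 0 in IR+Decursin against SHAM (1), by the larger smallest p.

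Leaving out 1 library gave these ranges, in the order IR against SHAM, IR+Decursin against IR and IR+Decursin against SHAM. Myh7 to Myh6 was 3.77 to 4.47, -2.80 to -2.09 and 1.31 to 1.93. Myl4 was -1.58 to 0.63, -1.29 to 2.38 and -0.90 to 1.05, and Myl7 was -1.72 to 0.63, -1.37 to 2.44 and -0.99 to 0.96. In IR+Decursin against IR, Myl2 relative to markers was -0.075 to 0.063, Myl7 to Myl4 was -0.049 to 0.21, and 0 to 1 members passed relative to the markers (1 without IR 3, IR+Decursin 1 or IR+Decursin 4). In IR+Decursin against SHAM, Myl2 to Myl3 was -0.077 to 0.073, and 0 to 2 members passed relative to the markers (2 without IR+Decursin 4). Of the other ratios 0 to 1 passed in these 2 comparisons, without IR+Decursin 2 and without IR+Decursin 4.

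Libraries with the same number were not paired: over 18 such pairs, r of the deviations was -0.52 to 0.41, 3 were over 0.1, and 0 libraries were most like their own number. With the replicate block, 5, 0 and 4 members and 6715, 0 and 3874 genes were called.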
